A study of Mus musculus with 3 samples.

Results

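Microglia are the resident macrophages of the brain parenchyma, and perivascular macrophages occupy the space between the vessel wall and the endfeet of astrocytes. The transcripts of 10 genes that mark these cells, Cx3cr1, P2ry12, Tmem119, Csf1r, Aif1, Trem2, C1qa, Mrc1, Cd163 and Lyve1, were followed in isolated brain vessels of mice with and without Connexin 30 (Cx30, encoded by Gjb6), a gap junction protein of astrocyte endfeet. They were chosen by name as markers and are 10 of the 29917 genes of the deposited tables. Of a gene's transcript rows, the one with the largest total count was used.

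Polyadenylated RNA was sequenced in 3 libraries, each from the pooled whole-brain vessels of 3 male mice aged 3 months. The groups, with 1 library each, were C57BL6 WT, C57BL6-BALB/c WT and Cx30-/-, in which Cx30 is deleted in all tissues and not only in astrocytes. For the Cx30-/- mice the sample labels give a C57BL6 background and the methods of the study a mixed C57BL6 and Balbc one, so it is unsettled which WT library is the closer match. With 1 library per group there was no spread between replicates to set a difference against. The ratios below carry 95% exact binomial intervals, which cover the sampling of reads only, and reads without molecular identifiers are not independent molecules. The 3 comparisons are also not independent, since each pair of comparisons shares a library.

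The deposited counts summed to between 50375426 and 60725557 per library over 82813 transcripts, in which a read on a shared exon was counted for each transcript. Gjb6 had 2899 counts in C57BL6 WT, 2246 in C57BL6-BALB/c WT and 96 in Cx30-/- vessels. Cldn5, a tight junction gene of endothelium, had 18264.6, 8572.9 and 20542.6 normalized counts per kilobase in the same order, the level in C57BL6-BALB/c WT being the lowest. The preparations also held other brain tissue, with Snap25 of neurons at 3800.6 to 6454.1 and Ttr of choroid plexus at 86205.2 to 224166.7 normalized counts per kilobase.

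Microglia enter the brain from the yolk sac in the embryo, survive on signals through the CSF1 receptor, and in their resting state carry the fractalkine receptor and the purinergic receptor P2ry12. Perivascular macrophages share this lineage control, but carry scavenger and endocytic receptors such as Mrc1 and Cd163 and sample fluid along arterioles and venules. PU.1, encoded by Spi1, is the transcription factor that both cell types need, and it binds a core that reads GAGGAA.

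Promoter sequences from RefSeq (GRCm38.p6) were available for 6 of the 10 genes and are shown for Mrc1 and Cd163, the members with their highest level in the Cx30-/- library, and for Trem2, a member highest in C57BL6 WT. Each line is the part of the 250 bases upstream of the RefSeq start that lies outside annotated exons, 5′ to 3′ along the gene, and capitals mark TTCCTC, the reverse complement of GAGGAA.
Mrc1, chr2:14229164-14229391, plus strand: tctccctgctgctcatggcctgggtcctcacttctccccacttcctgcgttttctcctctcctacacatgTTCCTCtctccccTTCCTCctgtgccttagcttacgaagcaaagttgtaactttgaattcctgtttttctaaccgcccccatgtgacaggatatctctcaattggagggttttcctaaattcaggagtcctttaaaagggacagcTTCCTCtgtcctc
Cd163, chr6:124304429-124304650, plus strand: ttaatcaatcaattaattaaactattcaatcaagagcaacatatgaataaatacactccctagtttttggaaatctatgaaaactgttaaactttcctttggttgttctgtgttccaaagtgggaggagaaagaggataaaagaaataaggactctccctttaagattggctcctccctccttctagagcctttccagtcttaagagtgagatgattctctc
Trem2, chr17:48346151-48346400, plus strand: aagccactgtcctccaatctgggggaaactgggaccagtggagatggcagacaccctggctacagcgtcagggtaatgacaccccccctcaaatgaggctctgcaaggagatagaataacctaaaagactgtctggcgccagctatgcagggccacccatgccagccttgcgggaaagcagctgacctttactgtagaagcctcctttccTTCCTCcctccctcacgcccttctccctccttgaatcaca
Mrc1 held 3 matches, which began 180, 167 and 35 bases before the start, Trem2 held 1 match at 40 bases, and Cd163 held 0. With Aif1, 3 of the 6 members held GAGGAA on either strand of the 250 bases, against 23.3% of 32851 mouse promoters in windows of the same length. Cx3cr1 and P2ry12, whose windows are annotated as exon throughout, were searched but are not printed. A match describes these letters and not a bound site.

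Among the microglial genes, Cx3cr1 had the largest difference between Cx30-/- and C57BL6 WT vessels. Cx3cr1 (ENSMUSG00000052336; chromosome 9 of GRCm38 from 119901616 to 120069879, minus strand, 2 exons) encodes the receptor for fractalkine. It had 828 counts in C57BL6 WT, 468 in C57BL6-BALB/c WT and 467 in Cx30-/- vessels, or 723.0, 505.5 and 489.9 counts after normalization to library size. The C57BL6 WT library thus stood above the other two, which lay close together. Relative to C57BL6 WT, Cx3cr1 in Cx30-/- had a log2 ratio of -0.56 (95% interval -0.73 to -0.40), and relative to C57BL6-BALB/c WT one of -0.05 (-0.23 to 0.14). The WT libraries differed from each other by nearly as much, with a log2 ratio of C57BL6-BALB/c over C57BL6 of -0.52 (-0.68 to -0.35). Here and below, fewer cells of a type and less RNA per cell cannot be told apart in bulk RNA.

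P2ry12 (ENSMUSG00000036353; chromosome 3 from 59216272 to 59262871, minus strand, 4 exons), the ADP receptor by which microglial processes find sites of injury, had 459, 318 and 351 counts in C57BL6 WT, C57BL6-BALB/c WT and Cx30-/- vessels. After normalization these were 400.8, 343.5 and 368.2, the narrowest range of the 10 genes as a ratio of highest to lowest. The intervals of both Cx30-/- ratios held 0, -0.12 (-0.33 to 0.08) for C57BL6 WT and 0.10 (-0.12 to 0.32) for C57BL6-BALB/c WT. Tmem119 (ENSMUSG00000054675; chromosome 5 from 113793729 to 113800516, minus strand, 2 exons) encodes a membrane protein used to tell microglia from other macrophages. It had 620, 401 and 442 counts, or 541.4, 433.1 and 463.7 after normalization. Its Cx30-/- level gave a log2 ratio of -0.22 (-0.40 to -0.04) to C57BL6 WT and of 0.10 (-0.10 to 0.30) to C57BL6-BALB/c WT. All 3 microglial genes were therefore highest in C57BL6 WT, and their log2 ratios between Cx30-/- and C57BL6-BALB/c WT had intervals that held 0.

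Of the 4 genes shared by microglia and macrophages, 3 had the order of P2ry12 and Tmem119, with C57BL6 WT highest, Cx30-/- next and C57BL6-BALB/c WT lowest. Csf1r (ENSMUSG00000024621; chromosome 18 from 61100598 to 61132149, plus strand, 22 exons) encodes the receptor kinase for CSF1 and IL-34. It had 2434 counts in C57BL6 WT, 1323 in C57BL6-BALB/c WT and 1744 in Cx30-/- vessels, normalized to 2125.4, 1429.0 and 1829.5. Cx30-/- gave a log2 ratio of -0.22 (-0.31 to -0.13) to C57BL6 WT and of 0.36 (0.25 to 0.46) to C57BL6-BALB/c WT, so that the Cx30-/- level lay between those of the WT libraries. C1qa (ENSMUSG00000036887; chromosome 4 from 136895917 to 136898803, minus strand, 3 exons), a chain of the complement protein C1q, had 1577, 740 and 1153 counts, normalized to 1377.1, 799.3 and 1209.6. It followed the same order, with log2 ratios of -0.19 (-0.30 to -0.08) and 0.60 (0.46 to 0.73) for Cx30-/- against C57BL6 WT and C57BL6-BALB/c WT.

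Trem2 (ENSMUSG00000023992; chromosome 17 from 48346401 to 48354147, plus strand), a lipid-sensing receptor that signals through Tyrobp, was also in this order. Its row with the most counts is a transcript that retains an intron (4 exons), with 381 counts in C57BL6 WT, 166 in C57BL6-BALB/c WT and 250 in Cx30-/- vessels, normalized to 332.7, 179.3 and 262.3. The reads covered 55.0% to 63.6% of its 4784 bases. The protein-coding row with the most counts, of 1056 bases, had 264, 103 and 189 counts and 87.0% to 95.2% of its bases covered. The log2 ratio of Cx30-/- to C57BL6-BALB/c WT was 0.55 (0.26 to 0.84) in the first row and 0.83 (0.48 to 1.19) in the protein-coding row, and to C57BL6 WT -0.34 (-0.58 to -0.11) and -0.22 (-0.50 to 0.06). The rows share reads and are not separate measurements.

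Aif1 (ENSMUSG00000024397; chromosome 17 from 35170991 to 35176068, minus strand, 7 exons), which encodes the actin-binding protein Iba1, was the exception in this group and had the fewest counts of the members in 2 of the 3 libraries. It had 84 counts in C57BL6 WT, 99 in C57BL6-BALB/c WT and 75 in Cx30-/- vessels, normalized to 73.3, 106.9 and 78.7, so that C57BL6-BALB/c WT was highest. Both intervals for Cx30-/- held 0, with log2 ratios of 0.10 (-0.37 to 0.57) and -0.44 (-0.90 to 0.01). At this depth no difference from either WT library was detectable for Aif1.

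**Figure D1:**
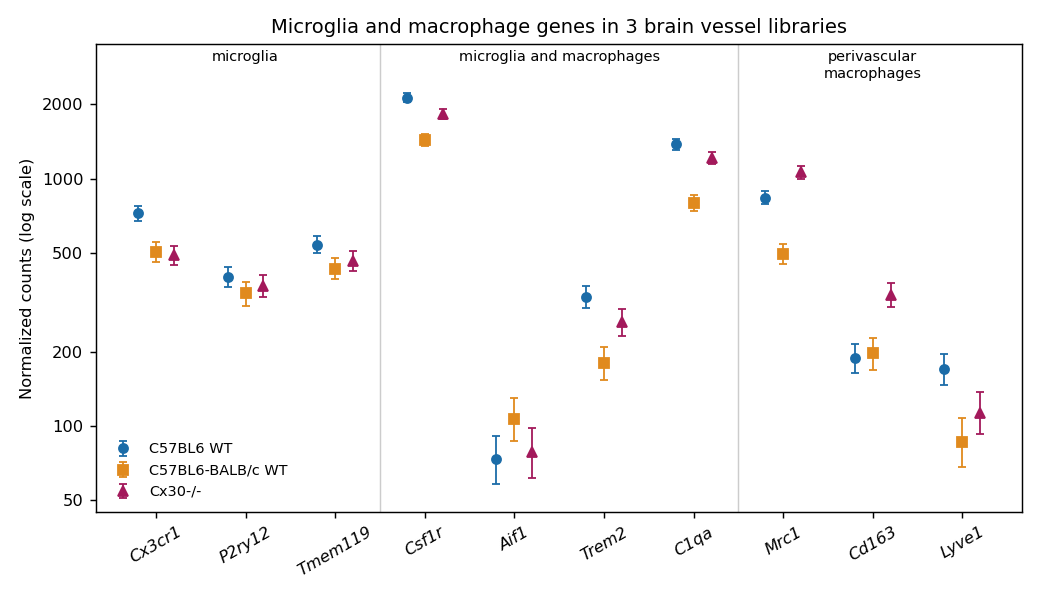
Normalized counts of the 10 genes (log scale) in the C57BL6 WT (circles), C57BL6-BALB/c WT (squares) and Cx30-/- (triangles) libraries, in 3 role groups. Each point is 1 library and the bars are 95% exact Poisson intervals of the count. Mrc1 and Cd163 are highest in Cx30-/-, at 1060.6 and 337.8, and 7 of the 10 genes are lowest in C57BL6-BALB/c WT (9 when scaled by the deposited totals).

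Mrc1 and Cd163, genes of perivascular macrophages, were the only members with their highest level in Cx30-/- vessels, 2 of 10 against 36.4% of the 14979 genes that reached 50 normalized counts in some library. Mrc1 (ENSMUSG00000026712; chromosome 2 from 14229392 to 14332057, plus strand, 30 exons) encodes the mannose receptor, also known as CD206. It had 960 counts in C57BL6 WT, 461 in C57BL6-BALB/c WT and 1011 in Cx30-/- vessels, normalized to 838.3, 497.9 and 1060.6. The Cx30-/- level stood 2.13-fold above that of C57BL6-BALB/c WT, a log2 ratio of 1.09 (0.93 to 1.25), and above that of C57BL6 WT by a log2 ratio of 0.34 (0.21 to 0.47). The WT libraries differed from each other by more than the latter, with a log2 ratio of -0.75 (-0.92 to -0.59) for C57BL6-BALB/c over C57BL6.

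Cd163 (ENSMUSG00000008845; chromosome 6 from 124304656 to 124330527, plus strand, 17 exons) encodes the scavenger receptor for complexes of haemoglobin and haptoglobin. It had 215, 182 and 322 counts, normalized to 187.7 in C57BL6 WT, 196.6 in C57BL6-BALB/c WT and 337.8 in Cx30-/- vessels. The WT libraries were close to each other, with a log2 ratio of 0.07 (-0.23 to 0.36), and Cx30-/- stood apart from both. The level in Cx30-/- was 1.8-fold that of C57BL6 WT (log2 ratio 0.85, 0.59 to 1.1) and 1.72-fold that of C57BL6-BALB/c WT (0.78, 0.51 to 1.05).

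Lyve1 (ENSMUSG00000030787; chromosome 7 from 110850607 to 110863239, minus strand, 6 exons), a hyaluronan receptor of perivascular macrophages and of lymphatic endothelium, did not share this order. It had 194 counts in C57BL6 WT, 80 in C57BL6-BALB/c WT and 108 in Cx30-/- vessels, normalized to 169.4, 86.4 and 113.3. It was highest in C57BL6 WT, and Cx30-/- gave a log2 ratio of -0.58 (-0.93 to -0.23) to C57BL6 WT and of 0.39 (-0.04 to 0.83) to C57BL6-BALB/c WT. Of 5 lymphatic endothelial genes, Ccl21a had 0 counts in all 3 libraries, which allows up to 3 counts in each. This bound covers only reads that matched once, since the others had been removed. The minimum was passed by 4 of the genes, with 2 higher and 2 lower in Cx30-/- in each comparison. The summed level of the list was 2586.5 normalized counts in C57BL6 WT, 2444.3 in C57BL6-BALB/c WT and 3139.8 in Cx30-/- vessels. Most of each sum was Flt4, with 1514.2, 1306.9 and 2182.0. Flt4 was highest in Cx30-/- vessels, as were the 6 blood endothelial genes given below. The sum was therefore not taken as a measure of lymphatic endothelium. The part of lymphatic endothelium in the Lyve1 values was not tested. Flt4 and Pdpn were the most abundant genes of this list.

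The study asked which transcripts differed in Cx30-/- vessels whatever the WT background, at 2-fold or more with at least 50 reads. By that rule, with the minimum of 50 set on normalized counts in either library compared, 0 of 10 members differed between Cx30-/- and C57BL6 WT, against 2.68% of all genes (1.42% higher and 1.26% lower). Between Cx30-/- and C57BL6-BALB/c WT, 1 of 10 differed, Mrc1, which was higher, against 3.96% of genes higher, 4.73% lower and 8.69% in either direction. Between the WT libraries 0 of 10 differed, against 3.43% of genes (1.41% higher and 2.02% lower in C57BL6-BALB/c). In both Cx30-/- comparisons 0 of 10 differed the same way, against 1.42% (0.742% higher and 0.681% lower). At 1.5-fold, Cd163 alone was past the threshold in both, against 7.52% of genes.

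The plainest pattern among the members lay between the WT libraries. C57BL6-BALB/c WT was lower than C57BL6 WT for 8 of 10 members, against 50.2% of all genes, and was the lowest of the 3 libraries for 7 of 10 (9 of 10, with Cx3cr1 and Cd163, when scaled by the deposited library totals), against 41.2%. C57BL6 WT was the highest for 7 of 10 members, against 22.9%. Cx30-/- was the lowest for 1 of 10, Cx3cr1, against 36.9%, but for 0 of 10 with the deposited totals. The median log2 ratio of C57BL6-BALB/c over C57BL6 was -0.55 for the members and 0.00 for all genes. Cx30-/- was lower than C57BL6 WT for 7 of 10 (50.8% of genes) and higher than C57BL6-BALB/c WT for 8 of 10 (50.3%), with median log2 ratios of -0.20 and 0.37 for the members against -0.01 and 0.01 for all genes. The 2 WT libraries differ in background, in the mice pooled and in the preparation of the vessels, which cannot be told apart.

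**Figure D2:**
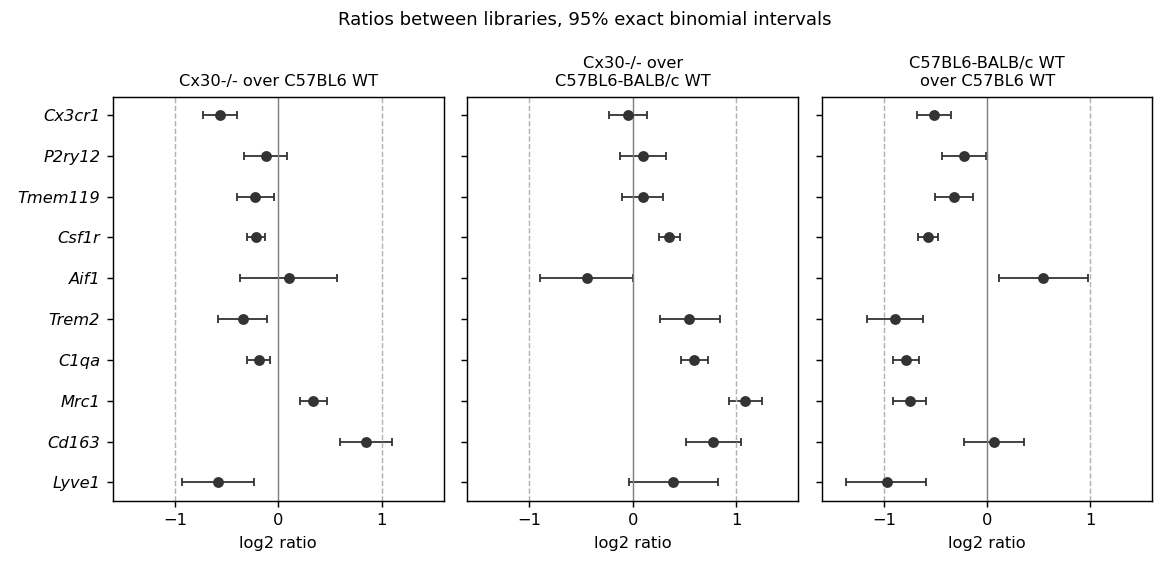
Log2 ratios of the 10 genes in the 3 comparisons, Cx30-/- over C57BL6 WT, Cx30-/- over C57BL6-BALB/c WT and C57BL6-BALB/c WT over C57BL6 WT. Bars are 95% exact binomial intervals that cover read sampling only, and dashed lines mark 2-fold. Cd163 lies to the right of 0 in both Cx30-/- comparisons, at 0.85 and 0.78, while Cx3cr1 lies at -0.56 and -0.05.

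Cx30-/- was also compared with both WT libraries as 1 group across 17576 genes by edgeR's quasi-likelihood test, in which the spread comes only from the 2 WT libraries of differing background. None of the 10 members had an adjusted p under 0.05 (Benjamini-Hochberg), where 9 genes in all (0.0512%) did. At an unadjusted p under 0.05 there were 2 members, against 8.69% of genes, and DESeq2 called 0 members, adjusted or unadjusted, with an adjusted p given for 3 of them. The members were Cd163, with a log2 ratio of 0.82 and an adjusted p of 0.4579 in edgeR (0.3641 to 0.3901 under the alternatives), and Mrc1, with 0.67 and 0.5544 (0.4714 to 0.9074). Both were higher in the Cx30-/- library than in 2 of 2 WT libraries. The other 8 members had adjusted p-values of 0.8881 or more in edgeR, which does not show that they were alike in the groups.

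Levels of different genes were compared as normalized counts per kilobase of transcript. C1qa was the highest member in every library, with 1324.1 in C57BL6 WT, 768.5 in C57BL6-BALB/c WT and 1163.0 in Cx30-/- vessels, followed by Csf1r (549.2, 369.2 and 472.8) and Tmem119 (259.3, 207.4 and 222.1). The C1qa level stood at percentile 89.6 to 96.0 of the genes with any count in the library. Mrc1 per kilobase had rank 6 in C57BL6 WT (156.6), rank 7 in C57BL6-BALB/c WT (93.0) and rank 4 in Cx30-/- (198.2), where its counting interval overlapped that of Tmem119. Cd163 per kilobase had rank 10 in C57BL6 WT (41.8) and rank 8 in both others (43.8 and 75.3). Cx3cr1 and P2ry12 were neighbours whose intervals overlapped in all 3 libraries. The place of Trem2 depended on its transcript row. The retained-intron row gave 69.5, 37.5 and 54.8 normalized counts per kilobase in C57BL6 WT, C57BL6-BALB/c WT and Cx30-/- vessels, next to Lyve1 with overlapping intervals, while the protein-coding row gave 218.3, 105.4 and 187.8. With the latter, a choice made after seeing the data, Trem2 had ranks 4, 7 and 5 and moved Mrc1 to ranks 7, 8 and 4 and Cd163 to ranks 10, 9 and 9.

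The balance of the 2 kinds of transcript within a library does not depend on the scaling between libraries. The counts of Mrc1, Cd163 and Lyve1 made up 41.79% of their sum with Cx3cr1, P2ry12 and Tmem119 in C57BL6 WT (1369 of 3276 counts, 95% Wilson interval 40.11% to 43.49%), 37.85% in C57BL6-BALB/c WT (723 of 1910, 35.70% to 40.05%) and 53.35% in Cx30-/- (1441 of 2701, 51.47% to 55.23%). The Cx30-/- share was thus the highest, and its interval did not meet those of the WT libraries. Without Mrc1, the member with the most counts among them, the shares were 17.66% (16.16% to 19.27%), 18.08% (16.19% to 20.15%) and 25.44% (23.42% to 27.57%). Of the genes then left, Cd163 had 215, 182 and 322 counts and Lyve1 194, 80 and 108. Lyve1 thus did not share the higher level against C57BL6 WT, and the shares do not describe each gene. These genes were grouped with results of the same libraries known, so the shares are a description, and counting error does not include the variation between mice or preparations.

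Within the perivascular group the genes did not keep 1 ratio. Cd163 took 52.57% of the counts of Cd163 plus Lyve1 in C57BL6 WT (47.73% to 57.36%), 69.47% in C57BL6-BALB/c WT (63.64% to 74.73%) and 74.88% in Cx30-/- (70.58% to 78.75%). In the microglial group, Cx3cr1 took 64.34% of the counts of Cx3cr1 plus P2ry12 in C57BL6 WT, 59.54% in C57BL6-BALB/c WT and 57.09% in Cx30-/- vessels. The share of Trem2 in Trem2 plus C1qa was nearly level, at 19.46%, 18.32% and 17.82%.

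**Figure D3:**
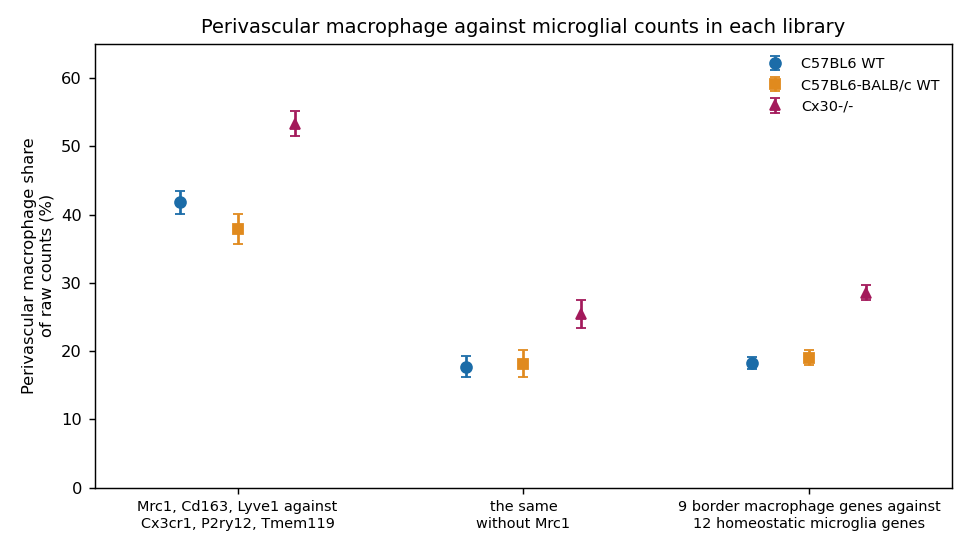
Share of perivascular macrophage counts (percent of raw counts) in each library for 3 gene sets: Mrc1, Cd163 and Lyve1 against Cx3cr1, P2ry12 and Tmem119, the same without Mrc1, and 9 border macrophage genes against 12 homeostatic microglia genes. Points are single libraries, bars are 95% Wilson intervals, and the Cx30-/- library (triangles) is highest in each set, at 53.35%, 25.44% and 28.54%. Lyve1 itself is lower in Cx30-/- (113.3 normalized counts) than in C57BL6 WT (169.4).

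Further known genes of the same cells were set beside the members. Of 12 homeostatic microglia genes, 11 passed the minimum. In Cx30-/- vessels 3 were higher and 8 lower than in C57BL6 WT, with a median log2 ratio of -0.23, and 8 were higher and 3 lower than in C57BL6-BALB/c WT, with a median of 0.21. Olfml3, which encodes a secreted protein, had 1025.2, 631.9 and 884.4 normalized counts in C57BL6 WT, C57BL6-BALB/c WT and Cx30-/- vessels. As with the microglial members, 0 of the 11 were past 2-fold in any of the 3 comparisons.

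Of 12 genes of perivascular and other border macrophages, 11 passed the minimum, and 10 were higher in Cx30-/- than in C57BL6 WT and 10 than in C57BL6-BALB/c WT, with median log2 ratios of 0.42 and 0.77. Cx30-/- was the highest library for 9 of the 11, against 36.4% of all genes. Past 2-fold were Clec10a, a lectin (1.24), against C57BL6 WT, and the chemokine Pf4 (1.28), the transglutaminase F13a1 (1.22) and the endocytic adaptor Dab2 (1.01) against C57BL6-BALB/c WT, with 0 genes past 2-fold in both. The most abundant, Stab1 (3171.5, 2478.9 and 4039.9 normalized counts) and Dab2 (3058.0, 2023.1 and 4080.8), are also expressed by endothelium, and Pf4 and F13a1 are also known from platelets. Ms4a7 went the other way against C57BL6 WT (-0.35) and Ccl24 against C57BL6-BALB/c WT (-0.64). Against C57BL6 WT the intervals of Ms4a7, Ccl24, Folr2 (0.07) and Siglec1 (0.20) held 0. Without Stab1, Dab2 and Maf, the counts of the remaining 9 genes made up 18.22% of their sum with the homeostatic microglia list in C57BL6 WT (17.39% to 19.08%), 19.00% in C57BL6-BALB/c WT (17.93% to 20.11%) and 28.54% in Cx30-/- (27.45% to 29.65%).

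**Figure D4:**
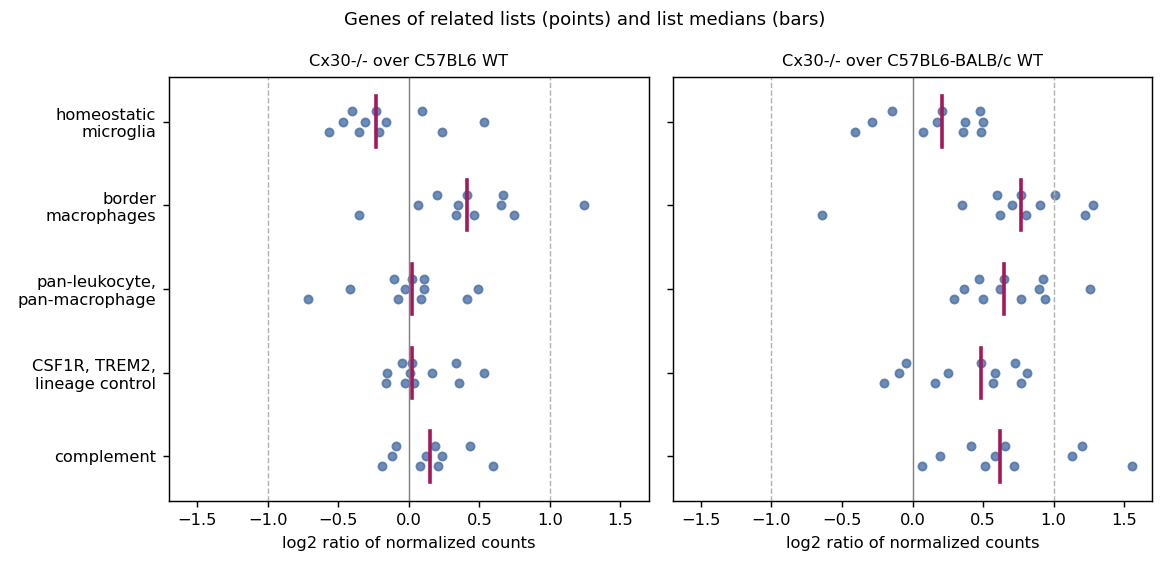
Log2 ratios of normalized counts of the genes of 5 lists (points; 1 library per group) in Cx30-/- over C57BL6 WT and over C57BL6-BALB/c WT, with the list medians as bars and 2-fold as dashed lines. The border macrophage medians are 0.42 and 0.77, and the homeostatic microglia medians -0.23 and 0.21.

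Markers of other cells also differed between the libraries, and not all in the same order. The 6 blood endothelial genes summed to 109969.7 normalized counts in C57BL6 WT, 69375.8 in C57BL6-BALB/c WT and 136165.8 in Cx30-/- vessels. The order of these sums is that of Mrc1 across the 3 libraries. In Cx30-/- vessels 6 of 6 were higher than in either WT library, against 36.4% of all genes. Their median log2 ratios were 0.21 and 0.85, and Slc2a1 and Cldn5 were the most abundant. The 6 neuronal genes, led by Slc17a7 and Syt1, summed to 37470.4, 46024.8 and 25516.1 normalized counts. Of these genes, 6 of 6 were lowest in Cx30-/-, against 36.9% of all genes. The 5 choroid plexus genes, led by Ttr and Kl, were 5 of 5 lowest in C57BL6-BALB/c WT, against 41.2% of all genes. They summed to 144386.5, 55843.0 and 75619.8, and the choroid plexus has macrophages of its own. The part of these tissues in the members' values was not tested.

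Genes of blood leukocytes also differed. Of 9 monocyte and neutrophil genes 6 passed the minimum, and all 6 were highest in Cx30-/-, against 36.4% of all genes. The list sums were 601.6, 397.5 and 1436.2 normalized counts in C57BL6 WT, C57BL6-BALB/c WT and Cx30-/- vessels. S100a8 (log2 ratios 1.57 and 2.58 against C57BL6 WT and C57BL6-BALB/c WT) and S100a9 (1.6 and 2.36), which together form calprotectin, the collagenase Mmp8 (3.28 and 2.13) and the chemokine receptor Ccr2 (1.13 and 1.26) were past 2-fold in both. That was 4 of the 6, all higher, against 0.742% of all genes. Ly6g and Ly6c2, which define neutrophils and inflammatory monocytes, were at or near 0, with 0 to 3 counts per library. Reads matching more than once had been removed, so these counts do not show that the transcripts were absent. Genes of T, B and NK cells, of which 5 were found, summed to 55.9, 55.1 and 76.6 normalized counts and none passed the minimum. The part of blood leukocytes in the values of Mrc1 and Cd163 was not tested.

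Of the pan-leukocyte and pan-macrophage genes, 11 of 11 were lowest in C57BL6-BALB/c WT (41.2% of all genes), as were most members. Against C57BL6 WT, 6 were higher and 5 lower in Cx30-/- (median 0.02), and against C57BL6-BALB/c WT 11 were higher (median 0.65). The lysosomal membrane gene Laptm5 had 1218.1, 814.4 and 1152.9 normalized counts in C57BL6 WT, C57BL6-BALB/c WT and Cx30-/- vessels. Lyz2, the lysozyme of macrophages and neutrophils, had 819.1, 456.9 and 1093.1.

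Ligands and signalling partners of the members were examined by role. Cx3cl1, the fractalkine ligand of Cx3cr1, which neurons express, stood at 13949.6 (C57BL6 WT), 12319.8 (C57BL6-BALB/c WT) and 8353.6 (Cx30-/-) normalized counts. It was lowest in Cx30-/-, with log2 ratios of -0.74 (-0.78 to -0.70) and -0.56 (-0.60 to -0.52), as were the 6 neuronal genes, whose part in this was not tested. The other genes of the fractalkine and purinergic list, led by the sheddase Adam10 (0.18 and 0.53), were within 2-fold. Of the 7 genes, 5 were highest in Cx30-/-, against 36.4% of all genes.

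Of the genes of CSF1R and TREM2 signalling and lineage control, 11 of 12 passed the minimum and 0 were past 2-fold in any comparison. Csf1, a ligand of Csf1r, had 2134.1, 1614.8 and 2398.1 normalized counts in C57BL6 WT, C57BL6-BALB/c WT and Cx30-/- vessels, and Csf2ra, a receptor chain for the growth factor GM-CSF, 1666.1, 2418.4 and 2104.4. Il34, the other ligand, differed least, with log2 ratios of 0.01 and -0.04 for Cx30-/-. Tyrobp, the signalling adaptor of Trem2, stood at 0.03 and 0.72, and Spi1 at 0.54 and 0.81 with 62.6 to 110.2 normalized counts. These single genes were picked for their tie to the members.

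C1qb and C1qc, the other chains of C1q, followed C1qa. Their log2 ratios of Cx30-/- were -0.09 and -0.12 against C57BL6 WT and 0.72 and 0.66 against C57BL6-BALB/c WT, beside -0.19 and 0.60 for C1qa. Of the 10 complement genes listed, 7 were higher and 3 lower than in C57BL6 WT (median 0.15), and 10 were higher than in C57BL6-BALB/c WT (median 0.62). C5ar1 (1.56) and Itgb2 (1.13) were past 2-fold against C57BL6-BALB/c WT, and 0 of the list were past 2-fold against C57BL6 WT. Serping1, an inhibitor of C1 proteases, had 1811.0, 1595.3 and 2130.6 normalized counts in C57BL6 WT, C57BL6-BALB/c WT and Cx30-/- vessels.

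Genes of activated, disease-associated microglia gave a mixed picture. Of 11 listed, 7 passed the minimum, with median log2 ratios of 0.14 against C57BL6 WT and 0.52 against C57BL6-BALB/c WT. Apoe and Axl, the most abundant, are also expressed outside microglia and had log2 ratios of 0.14 and 0.42, and of 0.24 and 0.55. Spp1 (1.61) and Clec7a (1.39) were past 2-fold higher than in C57BL6-BALB/c WT and Gpnmb (-1.46) lower than in C57BL6 WT, with 0 past 2-fold in both. Cst7, Itgax, Ccl3 and Ccl4 stayed under 50 normalized counts in every library.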

How the data were processed

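The labels of the 3 libraries gave their groups (genotype and background), with 1 library of 3 pooled mice each. Libraries were not strand-specific. The authors processed reads of 50 bases with Eoulsan 1.1.6, aligned them to mm10 with Bowtie 0.12.7 and removed reads matching more than once. The submitters' processing notes also name CASAVA 1.8.2. The authors deposited raw counts per transcript, the same as a fraction of 1 library total (20654144 to 24830975, of unstated meaning, used only as an alternative scaling), transcript lengths and the number of bases without reads, here given as percent of bases covered.

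GENCODE M21 named 69375 of 82813 transcripts (83.8%), and the rest were left out. Positions in the tables reach 197054592 on chromosome 1 and 1091 starts equal those of GENCODE, so their build is unknown, and GRCm38 positions are given. The exons of the 10 rows used overlap 0 other annotated genes. Normalized counts are raw counts over median-of-ratios size factors (1.1452, 0.9258 and 0.9532 for C57BL6 WT, C57BL6-BALB/c WT and Cx30-/-), without a pseudocount. A gene passed the minimum with 50 normalized counts in at least 1 library compared. Ratios have exact conditional binomial intervals (scipy 1.17.1). The test across genes used the quasi-likelihood test of edgeR 4.0.16 (R 4.3.3) after filterByExpr and TMM, with Benjamini-Hochberg adjustment, tested on simulated data, with DESeq2 1.42.0 as an alternative. Other alternatives were TMM, the deposited total, a sum of rows, the longest row, other minimums, 1.5-fold and a pseudocount of 1. No script used the strand of reads.

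The members and the 17 lists were chosen with earlier results of these data known. All members are named, with the 2 most abundant genes of each list and list genes past 2-fold in both Cx30-/- comparisons. Clec10a, Pf4, F13a1, Ms4a7, Ccl24, Folr2, Siglec1, Lyz2, C5ar1, Itgb2, Spp1, Clec7a and Gpnmb were named after their values were seen. Il34, Tyrobp, Spi1, C1qb and C1qc were named for their tie to members. Fcgr3 and Ms4a1 were not analysed here. The values of some list genes are not reported here.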

Additional observations from a re-analysis of the deposited data

How the results depend on the processing

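At 1.5-fold instead of 2-fold, 1 member was past the threshold for Cx30-/- against C57BL6 WT (Cd163), against 10.8% of all genes. Against C57BL6-BALB/c WT there were 3 (Mrc1, Cd163 and C1qa, all higher), against 28.9% of genes. Between the WT libraries there were 4 (Trem2, C1qa, Mrc1 and Lyve1, all lower in C57BL6-BALB/c), against 15.4%. In both Cx30-/- comparisons there was 1, against 7.52%. At 2-fold, the count of members between the WT libraries was 1 with the deposited library total (Lyve1, against 3.69% of genes). It was also 1 with the sum of transcript rows (Trem2, against 3.82%). Of 153 recomputed log2 ratios of members, 153 stayed within their 95% interval, and 2 changed sign, both with the deposited total, Cx3cr1 between Cx30-/- and C57BL6-BALB/c WT (0.03) and Cd163 between the WT libraries (-0.01). edgeR called 9 of all genes in the test as reported, 35 with RLE factors, 135 without a filter and 14 with summed rows, and DESeq2 called 11, with 0 members called in each. Leaving out a WT library leaves 1 library against 1, which gives the pairwise ratios of the report and no test. No paired analysis was possible because the labels give no replicate numbers and each group has 1 library. Depth limited Aif1 (75 to 99 counts per library) and Lyve1 (80 to 194) the most.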

Other observations

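Among 10818 genes with at least 200 normalized counts in each library, the 5 nearest to the mean profile of Cx3cr1, P2ry12 and Tmem119 by the distance of their log2 ratios to C57BL6 WT were Rpn1, Arrdc4, Acsl5, Tmem63a and Gm5514. That profile was -0.30 in Cx30-/- and -0.35 in C57BL6-BALB/c WT, and the distances were 0.0118 to 0.0182. With only 3 libraries, 1335 genes lay as near as the farthest of the 3 microglial members (0.306). For Mrc1, Cd163 and Lyve1 the mean profile was 0.20 and -0.55, the nearest genes were Sqor, Slc6a13, Rgs16, Mpst and Nr2f6 (0.0060 to 0.0116), and 8026 genes lay as near as the farthest member (0.894), so these 3 genes shared no common profile.

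Other cell types of the preparation gave these values. The 6 genes of pericytes and smooth muscle, led by Rgs5 and Acta2, had median log2 ratios of 0.25 and 0.22 for Cx30-/- against C57BL6 WT and C57BL6-BALB/c WT. Against C57BL6-BALB/c WT, 3 were higher and 3 lower, with Rgs5 at 0.91 and Acta2 at -0.28, so that median stands for no common direction. The 6 fibroblast genes, led by Col1a2 and Dcn, had medians of 0.24 and 0.37. The 6 astrocyte genes, led by Slc1a2 and Slc1a3, had medians of -0.24 and -0.18, and the 6 oligodendrocyte genes, among them Mbp, -0.40 and -0.33.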
